A study of Mus musculus with 2 samples.

Results

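Bmp4, Grem1, Nog, Fgf10, Wnt5a, Rspo3 and Sfrp1 encode secreted signals and signal antagonists of mesenchyme, and their CTCF binding sites were described in newborn mouse stomach. The 7 genes were taken by name from the 21938 protein-coding genes of GENCODE M21 on the chromosomes. No measured value entered that rule, but earlier results of these data were known when the genes were chosen. A site was assigned to a gene when its summit, the position of highest signal in a peak, lay within 1, 10 or 100 kb of any annotated transcription start site (TSS) of that gene. This gave 39 of the 74283 chromosomal peaks in the list that the authors call optimal, and none of the 39 was shared between 2 of the genes.

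The data are CTCF ChIP-seq of whole stomach from B6NCrl mice at postnatal day 0, in 1 group of 2 samples that the labels number as biological replicates 1 and 2. In ChIP-seq, DNA bound by a protein is pulled down with an antibody and sequenced. Both samples carry the same donor and tissue identifiers in the labels, so the spread between them may be technical. The labels name no second condition, allele or treatment, and no test between conditions was possible. Whole tissue mixes mesenchyme with epithelium, nerves, vessels and blood, and neither gene expression nor cell type was measured, so that the tissue label could not be checked against marker genes and a site cannot be placed in 1 cell type.

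BMP ligands signal through receptor kinases and Smad proteins, and secreted antagonists hold the ligands away from their receptors. FGF ligands act through receptor tyrosine kinases, and Wnt ligands through Frizzled or Ror receptors, with or without stabilisation of beta-catenin. In the gut these signals pass from mesenchyme to epithelium and set the growth and regional identity of the lining. CTCF is a zinc finger protein that binds a long directional motif at insulators and at the anchors of chromatin loops, which are known to form mostly between motifs that face each other. The genes around Bmp4 and Grem1 are known to hold distant enhancers, among them limb enhancers of Grem1 inside introns of its neighbour Fmn1. Loops and enhancers were not measured here.

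The motif at each gene's strongest motif-bearing site is shown, because the score and direction of these motifs are compared in what follows. A matrix of 19 positions was built from strong peaks of chromosome 1, where none of the 7 genes lies, and its consensus was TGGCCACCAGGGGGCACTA. A site had the motif when its best score within 50 bp of the summit reached 10.28, a score met by 1% of random windows of the genome. The sequences below are from the mouse reference of the files' build (mm10), each written 5′ to 3′ on the strand that carries the G-rich form of the motif, with the motif in capitals.
Bmp4, chr14:46380516-46380574, minus strand: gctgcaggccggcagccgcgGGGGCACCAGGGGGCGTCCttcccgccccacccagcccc
Grem1, chr2:113824085-113824143, minus strand: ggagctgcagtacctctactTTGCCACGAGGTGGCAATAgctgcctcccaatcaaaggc
Nog, chr11:89303611-89303669, minus strand: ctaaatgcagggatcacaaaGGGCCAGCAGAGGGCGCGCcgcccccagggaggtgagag
Fgf10, chr13:118596999-118597057, minus strand: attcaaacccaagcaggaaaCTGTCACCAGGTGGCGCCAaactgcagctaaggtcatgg
Wnt5a, chr14:28507684-28507742, minus strand: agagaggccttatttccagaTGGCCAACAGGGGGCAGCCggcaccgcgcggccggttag
Rspo3, chr10:29532941-29532999, plus strand: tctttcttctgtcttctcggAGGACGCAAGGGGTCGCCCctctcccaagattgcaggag
Sfrp1, chr8:23505006-23505064, minus strand: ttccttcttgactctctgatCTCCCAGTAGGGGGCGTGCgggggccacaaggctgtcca
The motifs of Grem1 and Wnt5a matched the consensus at 15 of 19 positions, those of Bmp4, Nog and Fgf10 at 13, that of Rspo3 at 11 and that of Sfrp1 at 10. Rspo3 had the lowest score of the 7 at 10.8, close to the threshold, while Wnt5a had the highest at 18.8.

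The sites at the edges of the Grem1 and Bmp4 regions are shown for the same reason, since motif direction is the property by which such edges are usually compared. Each is the strongest optimal peak on its side within 500 kb of the gene's 5′ end, and both genes lie on the minus strand, so that their downstream side has the lower coordinates.
Grem1 downstream, chr2:113391101-113391159, plus strand: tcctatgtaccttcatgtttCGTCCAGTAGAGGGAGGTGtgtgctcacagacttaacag
Grem1 upstream, chr2:114175388-114175446, minus strand: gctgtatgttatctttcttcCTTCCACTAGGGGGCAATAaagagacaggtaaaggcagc
Bmp4 downstream, chr14:45993831-45993889, plus strand: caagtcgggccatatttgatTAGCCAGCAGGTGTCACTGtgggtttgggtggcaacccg
Bmp4 upstream, chr14:46565157-46565215, minus strand: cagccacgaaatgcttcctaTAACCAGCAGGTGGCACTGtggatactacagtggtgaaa
In both regions the motif on the low-coordinate side lay on the plus strand and that on the high-coordinate side on the minus strand, so the pair faced each other across the gene. This arrangement held for the 500 kb window and not for every other one. Within 250 kb, the strongest Grem1 peaks, at 110.3 kb downstream and 65.5 kb upstream, both had minus-strand motifs, and the strongest downstream peak of Bmp4, at 1.8 kb, had no motif. Within 1 Mb the Grem1 pair was the same, while the strongest Bmp4 peaks had a minus-strand motif downstream and no motif upstream.

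The 7 genes had fewer CTCF sites around them than the median coding gene, and the number with a site at the start was close to that of all genes. At 1 kb, 4 of the 7 genes had an optimal peak, against 45.6% of all coding genes, and the 4 were Bmp4, Nog, Wnt5a and Sfrp1. Within 10 kb, 5 of the 7 had a peak, against 72.3% of all coding genes, and Grem1 and Fgf10 had none. All 7 had at least 1 within 100 kb, against 91.7% of all coding genes. The number of peaks within 100 kb was 10 for Sfrp1, 8 for Bmp4, 7 for Nog, 5 for Grem1, 4 for Wnt5a, 3 for Rspo3 and 2 for Fgf10. The median of the 7 was 5, against 11 for all coding genes, whose quartiles were 5 and 17, and each of the 7 lay at or below the median of all genes.

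**Figure D1:**
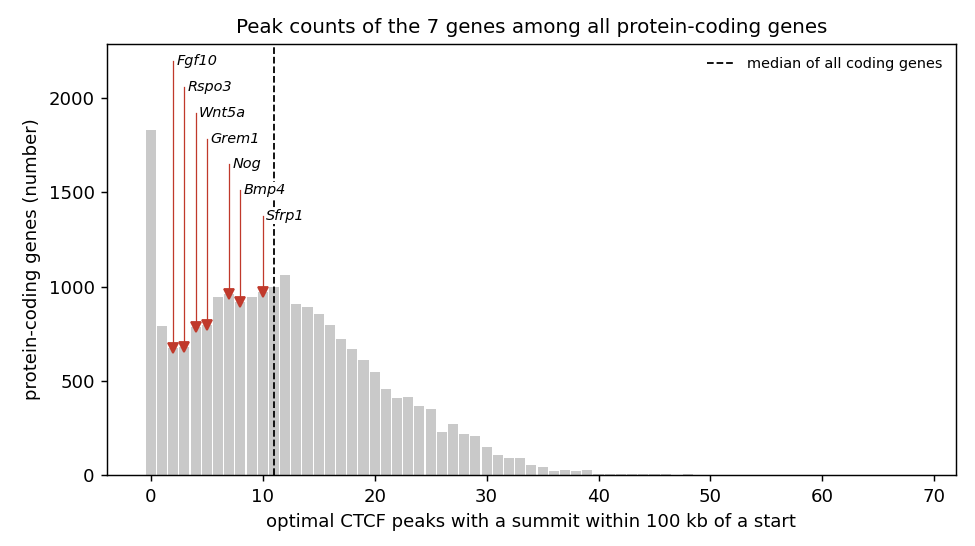
Distribution of the number of optimal CTCF peaks with a summit within 100 kb of a start over all protein-coding genes, with the 7 genes marked; the x axis gives the number of peaks and the y axis the number of genes. The 7 genes run from 2 peaks (Fgf10) to 10 (Sfrp1), left of the dashed line at the median of 11.

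Peak strength is given as the signal column of the authors' lists, a unit-free value of the peak caller that differs in scale between lists and is ranked inside one list. The exception is the ratio of the replicate 2 to the replicate 1 signal, which is read only against the same ratio over all optimal peaks. The 39 peaks had signals from 5.98 to 479.2 with a median of 66.1, against a median of 76.6 for all optimal peaks, and 15 of the 39 lay above that median. The motif was found in 21 of the 39 peaks (53.8%, exact Clopper-Pearson 95% interval 37.2 to 69.9, counting error only), against 65.6% of optimal peaks off chromosome 1. Peaks with the motif had a median signal of 93.8 and those without it 36.6, against 123 and 41.8 for all optimal peaks off chromosome 1. All 8 peaks with a signal of 200 or more had the motif, and at least 1 of the 8 belonged to each of Grem1, Nog, Wnt5a, Rspo3 and Sfrp1, but none to Bmp4 or Fgf10. Of all optimal peaks, 28.3% had a signal of 200 or more, and the motif share among those was not taken. For 32 of the 39 peaks the gene itself was the nearest coding gene. The other 7 lay nearer to Scg5 or Arhgap11a (4 peaks of Grem1), Gm15217 (2 of Bmp4) or Golga7 (1 of Sfrp1).

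**Figure D2:**
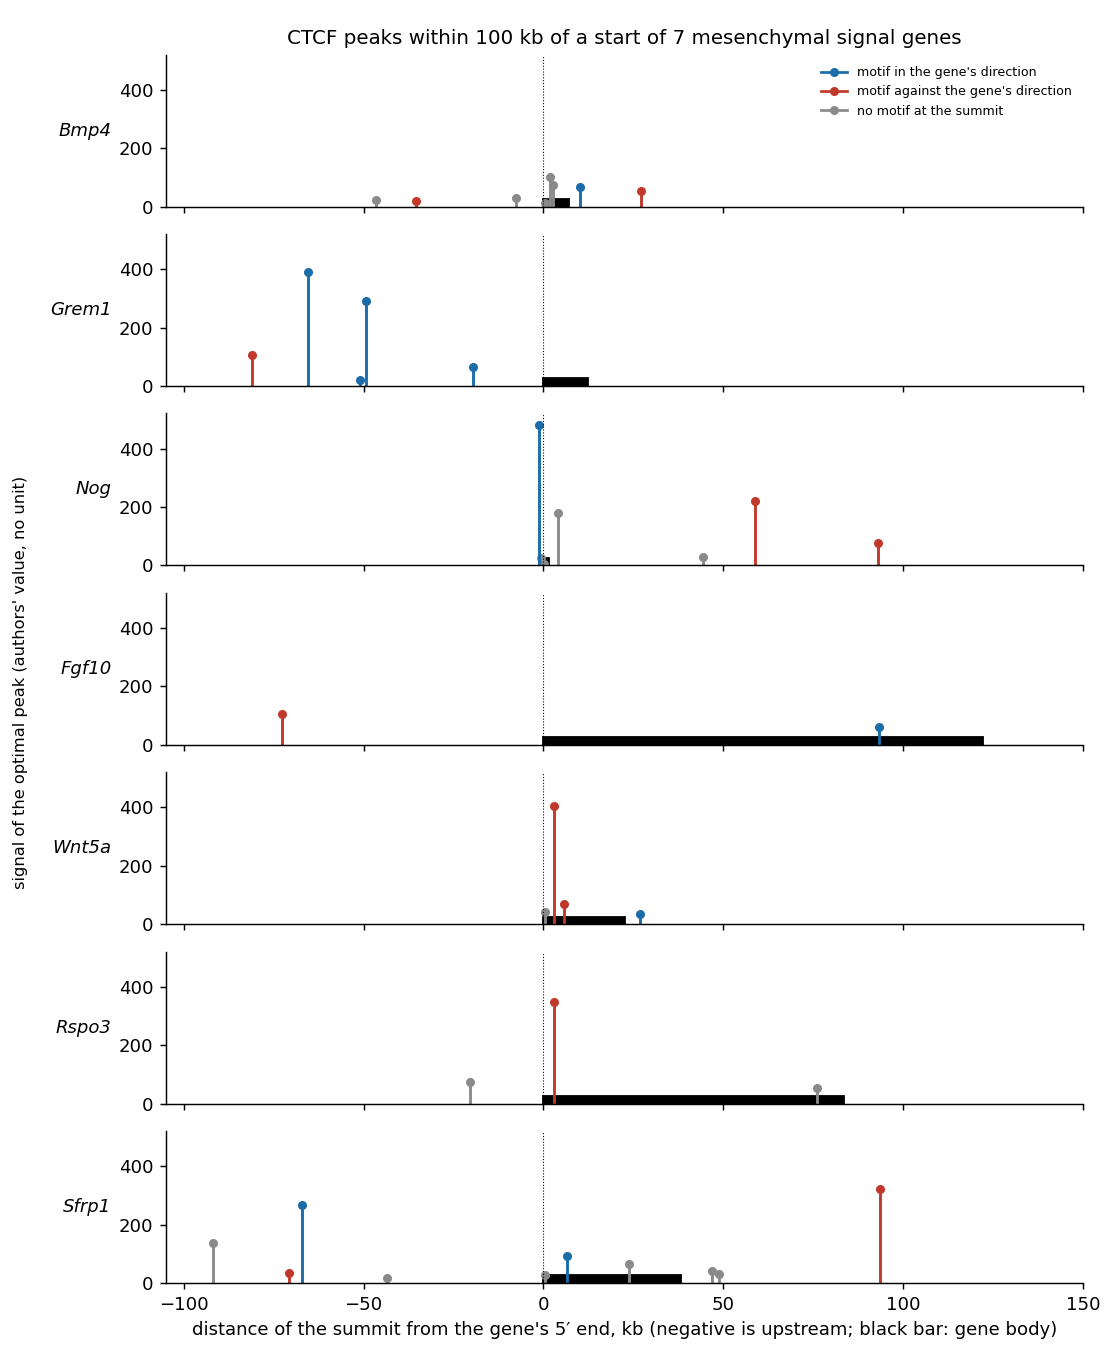
Optimal CTCF peaks within 100 kb of a start of each of the 7 genes; the x axis gives the distance of the summit from the gene's 5′ end in kb, the y axis the authors' signal, the black bar the gene body and the colour the motif and its direction relative to the gene. The tallest lines are those of Nog (479.2) and Wnt5a (403.5) beside their starts and of Grem1 (389.9) upstream, while no line of Bmp4 passes 101.2.

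Bmp4 (chromosome 14, 46383520 to 46390669, mm10, minus strand) encodes the BMP ligand of the group. It had 8 sites with signals of 11.02 to 101.2, of which 5 were within 10 kb and 3 had the motif, and 1 of the 8 lay above the median signal of all optimal peaks. The strongest lay inside the gene, 1598 bp from the nearest TSS and in an exon of the noncoding Gm15222. It had a signal of 101.2, with signals of 55.9 in the replicate 1 list and 44.9 in the replicate 2 list. Its best motif score was 1.33, far under the threshold, and the 61 bases around the summit had a GC content of 70.5%.
Bmp4 strongest, chr14:46388872-46388932, plus strand: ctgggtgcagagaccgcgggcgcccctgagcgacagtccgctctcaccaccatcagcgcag
The next in signal lay 633 bp from a TSS, also in the gene body. Its signal was 74.4, with 37.7 in replicate 1 and 36.1 in replicate 2, and its best motif score of 9.68 missed the threshold by little. The peak nearest to a TSS, at 225 bp, was the weakest of Bmp4, with a signal of 11.02 in the optimal list and of 5.44 in replicate 1. In replicate 2 the nearest summit lay 221 bp away and had a signal of 2.84. The strongest site with the motif lay in an intron of Gm15217, 6761 bp from a TSS of Bmp4. It was 584 bp from a TSS of the coding Gm15217. Its signal was 67.4, with 43.4 in replicate 1 and 24.4 in replicate 2. Another motif site 23.9 kb downstream had a signal of 41.2 in replicate 1 and 11.7 in replicate 2, a ratio of 0.284 that lies under the 5th percentile of all optimal peaks (0.382).

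Grem1 and Nog encode secreted proteins that bind BMPs and block them. The 2 antagonists differed in where CTCF bound. Grem1 (chromosome 2, 113746164 to 113758646, minus strand) had no site within 10 kb and none on its downstream side within 100 kb. Its 5 sites stood 19.6 to 80.9 kb upstream inside the introns of Scg5 (4 sites) and Arhgap11a (1 site), and all 5 had the motif. The strongest of them, 65.5 kb from the TSS, had a signal of 389.9, with 206.5 in replicate 1 and 184.7 in replicate 2. A second, 49.2 kb away, had a signal of 292.6, with 157.6 in replicate 1 and 135.4 in replicate 2. The remaining 3 had signals of 106.1, 64.1 and 20.03. The site nearest to Grem1 at 19.6 kb had a motif score of 19.97, the highest of the 5, although its signal was only 64.1. That window was 95.05% repeat sequence by the masking of the reference. The first peak beyond 100 kb had a signal of 168.5 and lay at 107.7 kb.

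Nog (chromosome 11, 89300638 to 89302332, minus strand) had the strongest site of all 39, 1301 bp upstream of its TSS in an intron of the noncoding Gm2018. Its signal was 479.2, with 261.9 in replicate 1 and 219.3 in replicate 2, and it ranked 1267 of 74283 optimal peaks. The 2 peaks nearer to the TSS were weak and lacked the motif. The one at 112 bp, in the untranslated region, had a signal of 5.98, with 8.67 in replicate 1 and 3.10 in replicate 2. The authors' conservative list holds an overlapping peak with its summit 199 bp away and a signal of 18.2. That peak had 13.8 in replicate 1 and 7.09 in replicate 2. The optimal peak at 652 bp had a signal of 24.9, with 22.5 in replicate 1 and 2.90 in replicate 2. Neither of these 2 optimal peaks was among the 74283 strongest peaks of replicate 2. Downstream, a site at 3981 bp had a signal of 178.2, the highest of any of the 39 without the motif, with 106.4 in replicate 1 and 70.4 in replicate 2. Motif sites 58.8 and 93.0 kb downstream had signals of 220.9 and 77.9. Their plus-strand motifs, on the low-coordinate side, faced the minus-strand motif 1301 bp upstream across the gene.

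Fgf10 (chromosome 13, 118669791 to 118792115, plus strand), the mesenchymal FGF ligand that acts on epithelial Fgfr2, had the fewest sites. The stronger lay 72.8 kb upstream between genes, with a signal of 106.5, of 64.4 in replicate 1 and of 42.6 in replicate 2. The other lay in an intron of Fgf10, 48.5 kb from the nearest TSS, with a signal of 59.5, of 36.3 in replicate 1 and of 24.3 in replicate 2. Both had the motif and both were found in each replicate. The next optimal peak was 266.1 kb from a TSS and had a signal of 273.8. Between its flanking coding genes B430218F22Rik and Nnt the span of 947.3 kb held 5 peaks, or 5.28 per Mb, against 24.7 per Mb over the whole of chromosome 13.

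Wnt5a (chromosome 14, 28504750 to 28527448, plus strand) encodes a Wnt ligand that acts largely without beta-catenin through Ror receptors. It carried a strong site in an intron, 1809 bp from the nearest TSS. That site had a signal of 403.5, with 224.1 in replicate 1 and 181.8 in replicate 2. Another peak lay 110 bp from an internal TSS, in an exon of the noncoding Gm2670. It was the 1 peak of the 39 with the motif within 1 kb of a TSS of its own gene. Its signal was 68.9, with 35.4 in replicate 1 and 32.1 in replicate 2. The peak at the 5′ end, 382 bp inside the gene, had a signal of 43.4 and of 29.5 in replicate 1. Its nearest replicate 2 summit had a signal of 19.2 and lay 110 bp away, just outside the 100 bp that counted as the same site. No optimal peak stood upstream of the gene for 182.4 kb. The conservative list held a weak peak with the motif inside that span. Its signal was 17.6, with 9.51 in replicate 1 and 9.38 in replicate 2.

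Rspo3 and Sfrp1 act on Wnt signalling from opposite sides. Rspo3 (chromosome 10, 29452416 to 29535867, minus strand) encodes an R-spondin, which raises the number of Wnt receptors at the cell surface through Lgr receptors. Its site 2891 bp inside the gene, in an intron, had a signal of 348.5, with 187.7 in replicate 1 and 161.3 in replicate 2. The other sites, 20.3 kb upstream and 44.9 kb from a TSS within the gene, had no motif and signals of 74.9 and 54.6. Sfrp1 (chromosome 8, 23411502 to 23449632, plus strand) encodes a secreted Frizzled-related protein that binds Wnts. It had the most sites, 10, but only 2 within 10 kb. The peak nearest to its TSS, 563 bp inside the gene in a coding exon, had a signal of 27.7, with 17.1 in replicate 1 and 9.95 in replicate 2. A motif site at 6435 bp had a signal of 93.8, with 56.4 in replicate 1 and 37.2 in replicate 2. The strongest pair stood at the outside of the gene. The site 93.5 kb downstream had a signal of 321.8, with 175.0 in replicate 1 and 146.7 in replicate 2. The site 67.1 kb upstream had a signal of 268.7, with 159.2 in replicate 1 and 110.4 in replicate 2. Their motifs faced each other, plus on the low-coordinate side and minus on the high-coordinate side.

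Peaks at the starts of the 7 genes were weak. The 7 peaks within 1 kb of a TSS of their own gene had a median signal of 27.7, ranging from 5.98 to 74.4. The median was 59.9 for the 13536 optimal peaks within 1 kb of any coding TSS. Of the 7 peaks, 1 had the motif, against 37.4% of optimal peaks near any coding TSS off chromosome 1. Not among the 7 was the Bmp4 motif site of signal 67.4, which lay 584 bp from a TSS of the coding Gm15217. The 8 peaks at 1 to 10 kb had a median signal of 139.7, and 5 had the motif. The 24 peaks beyond 10 kb had a median signal of 61.8, and 15 had the motif. At any distance, 65.6% of optimal peaks off chromosome 1 had the motif. Medians and motif shares over all optimal peaks were not taken for these larger distances, so the values are descriptions only. The strong sites close to a gene, those of Nog, Wnt5a and Rspo3, stood 1301, 1809 and 2891 bp from the start and not on it. The windows without the motif had a median GC content of 57.4% and those with it 51.5%.

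Each replicate list holds 300000 peaks, so replicates were compared over the 74283 strongest of each. Of the 39 peaks, 29 were found in both lists at that length (74.4%, interval 57.9 to 87.0), against 83.2% of all optimal peaks. In all, 34 were found in the replicate 1 list and 32 in the replicate 2 list, and 2 in neither, namely the weak peaks at the starts of Bmp4 and Nog. A conservative peak that overlaps the one of Nog reached 13.8 in replicate 1, where the lowest signal at that length was 12.7. Only 3 of the 7 peaks within 1 kb of a TSS of their own gene were found in both, against 75.6% of optimal peaks near any coding TSS. At 1 to 10 kb it was 7 of 8 and beyond 10 kb 19 of 24. With the motif, 19 of 21 peaks were found in both lists. Shares over all optimal peaks were not taken for these larger distances or for motif peaks, so these counts are descriptions only. Every peak was present in the whole replicate 1 list, and 3 had no summit within 100 bp in the whole replicate 2 list, at Bmp4, Wnt5a and Sfrp1. The conservative list of the authors held 33 of the 39, and the share of all optimal peaks that it held was not taken.

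Across the 36 peaks with a signal in both replicates, the replicate 2 signal was 0.70 times the replicate 1 signal at the median, with a range of 0.129 to 1.31, against 0.75 for all optimal peaks (5th to 95th percentile 0.382 to 1.21). The order of the peaks was alike, with a Spearman rho of 0.921 over the 36 peaks and of 0.949 over all optimal peaks, which share 2 libraries and are not independent. Outside that central range lay 4 of the 36 peaks on the low side and 3 on the high side. Those on the low side were the 3 weakly replicated peaks of Nog, at 112 bp, 652 bp and 44.3 kb, and the Bmp4 site at 23.9 kb. On the high side were 2 peaks of Bmp4 and 1 of Sfrp1, all with a signal under 40 in the optimal list. The 8 peaks with a signal of 200 or more lay between ratios of 0.694 and 0.894.

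**Figure D3:**
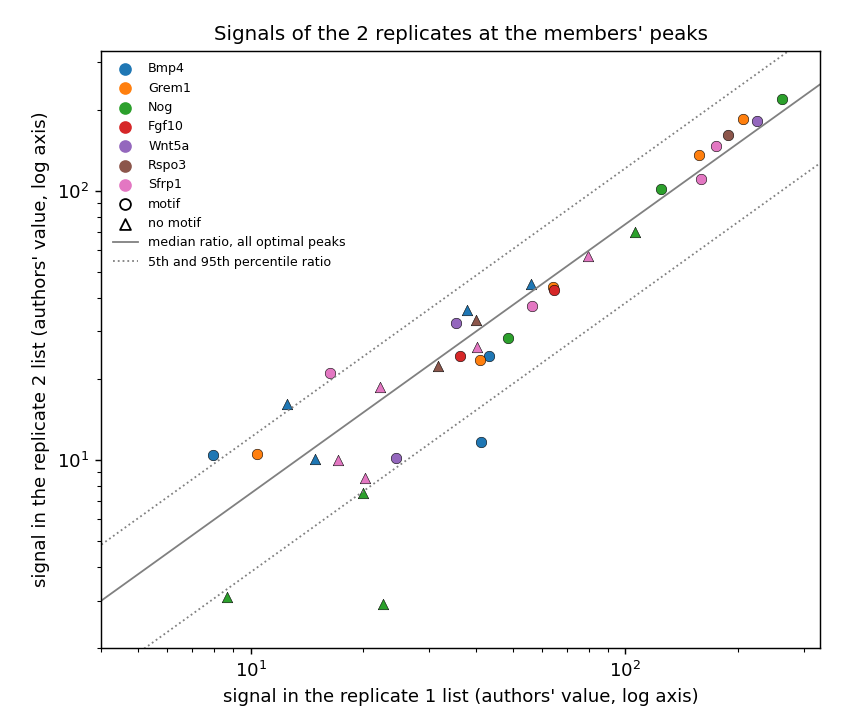
Signals of the 36 peaks in the replicate 1 list (x axis, log scale) and the replicate 2 list (y axis, log scale), in the authors' unit-free signal, coloured by gene, with circles for motif and triangles for no motif. The solid line is the median ratio of all optimal peaks (0.75) and the dotted lines its 5th and 95th percentiles (0.382 and 1.21), and the low point at a replicate 1 signal of 22.5 is the Nog peak 652 bp from the TSS.

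The stretch of the chromosome without any optimal peak around the 5′ end differed widely between the 7 genes. It measured 182.8 kb for Wnt5a, 166.1 kb for Fgf10 and 129.9 kb for Grem1. It was 44.1 kb for Sfrp1, 23.2 kb for Rspo3, 8.1 kb for Bmp4 and 0.8 kb for Nog, against a median of 29.0 kb for all coding genes. A shorter stretch than that of Wnt5a was found for 85.4% of coding genes, than that of Fgf10 for 84.6% and than that of Grem1 for 81.7%. The stretch of Wnt5a was free of optimal peaks only, since the conservative list held a motif peak with a signal of 17.6 within it. Weak peaks bounded the stretches of Bmp4 (signals of 11.02 and 29.5) and Nog (5.98 and 24.9). Between peaks above the median signal of all optimal peaks, the stretch measured 176.3 kb for Bmp4 and 159.5 kb for Grem1. That stretch was not taken for the other genes. Between the flanking coding genes, peak density was 50.1 per Mb at Sfrp1, 37.0 at Nog, 29.9 at Bmp4, 16.4 at Wnt5a, 8.41 at Rspo3 and 5.28 at Fgf10, against 27.3 per Mb of the genome.

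Strong sites stood at some distance on both sides of Grem1. Fmn1 and Scg5 leave a span of 59.6 kb around Grem1, which held no optimal peak. Within 500 kb of its 5′ end there were 23 peaks, of which 20 had the motif and 21 (91.3%) were found in both replicates. Of all optimal peaks, 83.2% were found in both, and 65.6% of those off chromosome 1 had the motif. Downstream, 12 peaks had a median signal of 322.9, and 7 of them had a signal of 300 or more, 6 in introns of Fmn1. The nearest, 110.3 kb away in an Fmn1 intron, had a signal of 371.2, with 207.8 in replicate 1 and 165.7 in replicate 2. The strongest, 367.5 kb away in an intron of Fmn1 (chr2:113390995-113391285), had a signal of 429.8, with 227.8 in replicate 1 and 204.8 in replicate 2. Upstream, 11 peaks had a median signal of 106.1, and 3 had a signal of 300 or more. The strongest of them, 416.8 kb away (chr2:114175266-114175544) and 74 bp from a TSS of the RNA helicase gene Aqr, had a signal of 408.2, with 223.8 in replicate 1 and 186.0 in replicate 2. The nearest motifs that faced each other across Grem1 were at 222.8 kb downstream, with a signal of 313.7, and at 19.6 kb upstream, with a signal of 64.1, a span of 242.4 kb.

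The Bmp4 region had many more peaks but fewer strong ones. Its flanking coding genes, Ddhd1 and Cdkn3, stand 1102.4 kb apart, leaving out Gm15217, whose end overlaps that of Bmp4, and the span between them held 33 peaks, 22 with the motif. Within 500 kb of the 5′ end there were 39 peaks, of which 22 had the motif and 31 (79.5%) were found in both replicates. The shares over all optimal peaks were 65.6% with the motif, off chromosome 1, and 83.2% in both replicates. Downstream, 11 peaks had a median signal of 52.6, and 1 had a signal of 300 or more. That one lay 396.8 kb away between genes (chr14:45993726-45994008), with a signal of 407.1, of 229.1 in replicate 1 and of 181.7 in replicate 2. Upstream, 28 peaks had a median signal of 50.5, and 5 had a signal of 300 or more. The strongest of these was also the first above 300 from the gene. It lay 174.5 kb away (chr14:46565044-46565318) in the noncoding genes E130120K24Rik and Gm49319, with a signal of 384.6, of 216.4 in replicate 1 and of 170.8 in replicate 2. The other 4 lay between 331.6 and 490.4 kb, on the side of Cdkn3, Cnih1 and Samd4. Between the 2 strongest sites lay only peaks with a signal of at most 101.2. The nearest facing motifs were weak, with signals of 52.6 at 27.3 kb downstream and 46.5 at 114.8 kb upstream, a span of 142.1 kb.

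**Figure D4:**
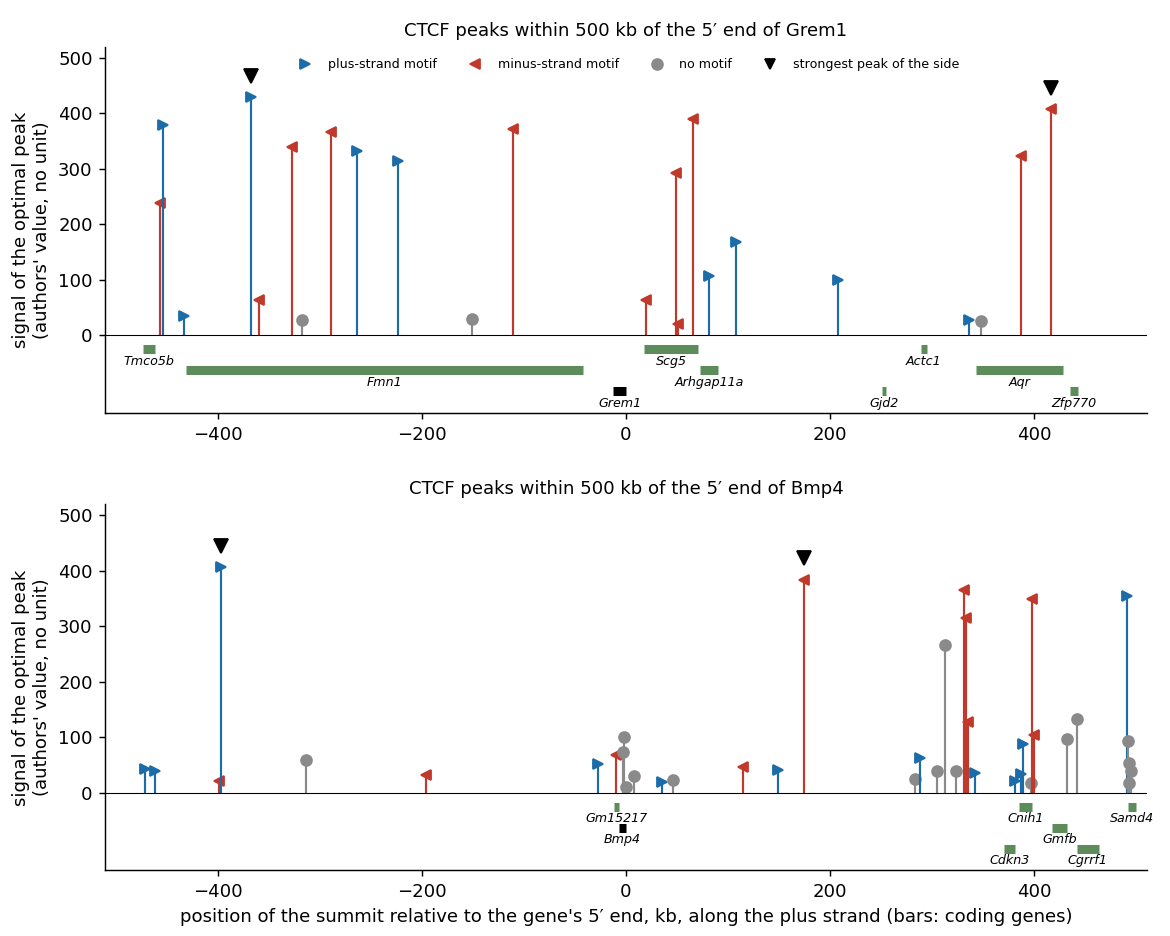
Optimal CTCF peaks within 500 kb of the 5′ end of Grem1 (top) and Bmp4 (bottom); the x axis gives the position along the plus strand in kb from the 5′ end and the y axis the authors' signal, with symbols for motif strand and bars for coding genes. Black triangles mark the strongest peak of each side, which for Grem1 are 429.8 and 408.2 and for Bmp4 407.1 and 384.6, and Grem1 has 7 peaks of 300 or more on its low-coordinate side where Bmp4 has 1.

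Each of the 4 edge sites had the motif, was in the conservative list and was among the 74283 strongest peaks of both replicates. They were chosen by signal, with which these properties go together, so this is a description. The Bmp4 pair scored 18.96 and 22.2 for the motif and the Grem1 pair 17.1 and 19.3. These edges are peaks chosen by strength within a set distance and are not loop anchors or domain boundaries, which were not measured. Their place depended on that distance for both genes. Within 1 Mb the strongest peaks lay 617.8 kb downstream and 907.5 kb upstream of Bmp4, and those of Grem1 were again at 367.5 and 416.8 kb. Within 250 kb, those of Bmp4 lay at 1.8 and 174.5 kb and those of Grem1 at 110.3 and 65.5 kb.

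Most other genes of the same pathways had a CTCF site within 10 kb. The lists held 127 other ligands, receptors, antagonists and targets, and all were found in the annotation. Of these, 71 had an optimal peak within 1 kb, 116 within 10 kb (91.3%) and 126 within 100 kb, with a median of 12 peaks within 100 kb. Of all coding genes, 45.6%, 72.3% and 91.7% had one at these distances, with a median of 11, and the 72.3% at 10 kb is the background for the counts per list that follow. The 7 genes had 5 of 7 within 10 kb and a median of 5 peaks, and the difference was not tested.

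Among BMP ligands, 10 of 12 had a peak within 10 kb. The strongest were at Gdf7 (455.1) and Gdf5 (391.1), and Bmp10 and Bmp5 had none. Of BMP antagonists, 10 of 11 had one, led by Smoc2 (457.4) and Nbl1 (425.6), and Chrdl1 had none. Of the BMP receptors and targets, 17 of 18 had one. Id2, a target that encodes an inhibitor of helix-loop-helix factors, had 6 peaks with a highest signal of 534.5, the receptor gene Acvr2b had 462.5, and the homeobox target Msx2 had none.

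All 12 of the other FGF ligands on the list had a peak within 10 kb, where Fgf10 had none, with the highest signals at Fgf20 (551.4) and Fgf1 (492.1). Of FGF receptors and targets, 13 of 14 had one. Fgfr2, the receptor of Fgf10 in epithelium, had 12 peaks within 10 kb with a highest signal of 472.5, Fgfr3 had 448.1, and Fgfr4 had none.

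Of the other Wnt ligands listed, 16 of 18 had a peak within 10 kb. Wnt5b, the close relative of Wnt5a, had 7 with a highest signal of 474.6, Wnt7b had 443.2, and Wnt2 and Wnt3 had none. Among R-spondins, their Lgr receptors and the ligases below them, 7 of 8 had one, led by Lgr6 (430.3) and Rnf43 (407.1), while Rspo4 had none. All 11 of the other Wnt antagonists on the list had one, led by Sost (520.4) and Notum (426.0). Of Wnt receptors and targets, 20 of 23 had one, with the highest signals at Tcf7l1 (529.1) and Axin2 (444.0), and Fzd10 and Porcn were the first of the 3 with none.

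Each gene was also matched with the listed gene whose peak counts were most like its own. Likeness was the sum of absolute differences over 6 counts, those within 1, 10 and 100 kb in each replicate list at the length of 74283, among 127 candidates. Fgf10 was nearest to Wnt2, with a sum of 1. Grem1 was nearest to Sostdc1, Nog to Dkk2 and Rspo3 to Bmp3, each with a sum of 2. Sfrp1 was nearest to Sfrp4 with a sum of 3. Bmp4 and Wnt5a had no close match, with a sum of 5 to Fzd8 and to Acvr2a. The matches of Sfrp1 and Wnt5a were each tied with 1 other gene and taken by the alphabet.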

How the data were processed

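CTCF ChIP-seq of newborn stomach was deposited as 5 peak lists in mm10 coordinates. The labels and the descriptions deposited with the samples give relaxed lists of 300000 peaks each for replicate 1, replicate 2 and both together. These were called from alignments and a control, and the optimal and conservative lists passed IDR. IDR keeps peaks that rank alike in the lists it compares. For aligner, peak caller and thresholds, names and versions were not given in the sources used here. Each list gives, as deposited by the authors, a signal, a −log10 q-value (0.270 to 5.12 in the optimal list), a score (537 to 1000 in the optimal list and 0 in the relaxed lists) and a summit offset in bp. Read counts were not used here, so the depth is unknown, and the lists are not on 1 scale of signal.

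Only peaks of chromosomes 1 to 19, X and Y entered (74283 optimal and 72171 conservative). Distances ran from the summit to the nearest annotated transcript start in GENCODE M21. Replicates were compared within 100 bp after shortening each list by signal to 74283 peaks. The motif matrix came from 900 aligned sites among the 1000 strongest peaks of chromosome 1, both strands were searched, and the threshold came from 100000 random windows. The counting, motif and partner steps were tested on simulated data. Python 3.11.15, numpy 2.4.6, pandas 2.3.3, scipy 1.17.1, pysam 0.24.0 and matplotlib 3.10.9 were used.

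The 7 genes, the other lists and the rules were chosen with earlier results of these data known, so counts are descriptions beside all coding genes or all optimal peaks. Named were all 7 genes, their nearest and strongest peaks, the strongest peak of each side within 500 kb for Grem1 and Bmp4, and, from each other list, the 2 genes with the strongest peak within 10 kb and the first 2 by alphabet with none. Other peaks of the 7 genes, the peak-free stretches, the facing motifs and the signal marks of 200 and 300 were chosen after their values were seen. Alternatives were other lists, single replicates, other distances, partner widths and motif thresholds.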

Additional observations from a re-analysis of the deposited data

How the results depend on the processing

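Of 64 alternative values, 49 stayed close and 15 moved. Close meant within 1.5 times for counts, within the interval for the share found in both replicates, within the SD of the 2 replicate lists for the motif share and the median signal, and the same site for the edges. The whole relaxed list of both replicates gave 7 genes with a peak within 1 kb and 171 peaks within 100 kb, while the stronger 37141 optimal peaks gave 0 genes and 15 peaks, since these lists are longer or shorter by construction. With 1 replicate left out, 3 to 5 genes had a peak within 1 kb, 5 to 6 within 10 kb and 7 within 100 kb, with 41 peaks in either case. With whole replicate lists, 92.3% of the 39 peaks were found in both. The motif share was 23.1% at the threshold met by 0.1% of random windows, 46.2% within 100 bp of the summit at the threshold for that width, 61.5% in the conservative list and 56.1% to 63.4% with 1 replicate left out. Shares over all peaks or all coding genes at these other settings are not given here. Those of the main setting are no background for these motif shares or for the gene counts above. The ratio of the median signal to that of all peaks, 0.863, was 0.763 to 0.836 with 1 replicate left out. Within 250 kb, the strongest Grem1 sites lay at 110.3 kb downstream and 65.5 kb upstream, and that of Bmp4 at 1.8 kb downstream; within 1 Mb, those of Bmp4 lay at 617.8 and 907.5 kb. The 4 edge sites were the same in either replicate alone and in the conservative list. No paired analysis was possible because there was 1 group. The depth is unknown, so that a peak missing from a list is not shown to be absent from the tissue.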

Other observations

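The lists of the authors were not nested at these genes. The conservative list held 6 peaks within 100 kb that had no optimal summit within 100 bp. They were 2 of Wnt5a, 2 of Nog, 1 of Bmp4 and 1 of Sfrp1, with signals from 17.6 to 42.6. The Nog peak 311 bp from the TSS overlaps an optimal peak, whose summit lies 199 bp away. The strongest of the 6 lay 67.7 kb upstream of Sfrp1, 576 bp from the nearest optimal summit, with the motif. It reached 17.2 in replicate 1 against 25.3 in replicate 2. One of Wnt5a lay 383 bp from a TSS, also with the motif, and had a signal of 25.8, with 14.4 in replicate 1 and 10.97 in replicate 2. With it, the conservative list placed 3 peaks within 1 kb of a Wnt5a start, where the optimal list placed 2. The other of Wnt5a was the weakest of the 6 and had the motif. It lay upstream, inside the stretch without optimal peaks.

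The relaxed lists held further peaks outside the optimal list, which had itself passed IDR. The counts here are a description of what the optimal list left out. Within 100 kb of the 7 genes, 142 peaks of the whole replicate 1 list had no optimal summit within 300 bp, and 32 of these had a replicate 2 summit within 100 bp. Of the 32, 10 had the motif and 2 were among the 74283 strongest peaks of both replicates, at Wnt5a and at Sfrp1. Wnt5a had 13 of the 32, and Fgf10 had 0 of its 4. The same counts were not taken over all coding genes, so they are not shown to be particular to the 7. At Grem1, which had no optimal peak within 10 kb, the strongest lay 3215 bp inside the gene with the motif, at a replicate 1 signal of 16.6 and a replicate 2 signal of 6.23.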
